A study of Homo sapiens with 4 samples.

Results

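The genes that encode the proteins of the cytosolic ribosome were followed in cells labelled NB4, an acute promyelocytic leukaemia line, after 24 h with dBET1 or with the solvent DMSO. Members were protein-coding genes named RPL or RPS plus a number, with or without a single letter A, X, Y or L and further digits. RPSA, RPLP0, RPLP1 and RPLP2 were added, and S6 kinases, readthrough names and pseudogenes were left out. RPL36AL, with AL after its number, falls outside this rule. The rule gave 86 genes, 34 of the small and 52 of the large ribosomal subunit, and 9 of the 86 are paralogs of another member. The count table held 85 of them among its 64252 identifiers, and 83 were tested. RPL10L and RPS4Y1 did not pass the filter on low counts, and RPS4Y2 was not analysed here. Of the 83, only RPL3L had fewer than 100 counts in some library.

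dBET1 links the BET bromodomain proteins, which bind acetylated chromatin and help RNA polymerase II into elongation, to a ubiquitin ligase that has them degraded. The study treated the cells at 8 μM and sequenced RNA of 2 libraries from each group, with the cell line as the only source named. The libraries held 28019956 to 34685645 counts. Nothing in the labels says that replicates were separate cultures, so p-values measure the spread between these libraries, which may be technical.

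The label of the cells was set against marker genes. Of 8 promyelocyte markers, the granule proteases ELANE and CTSG had 0 counts in all libraries and MPO had 0 counts in both DMSO libraries and 22 and 10 counts with dBET1. Most counts of the list came from the transcription factor SPI1, at 904 and 809 counts in DMSO and 629 and 727 with dBET1, and the surface protein CD33, at 323 and 335 counts in DMSO and 331 and 323 with dBET1. The 8 markers summed to 1280 and 1176 counts in DMSO and to 1026 and 1088 counts with dBET1. In contrast, 12 erythroid markers, among them the globins and the factor GATA1, summed to 284749 and 275747 counts in DMSO. They summed to 153387 and 154355 counts with dBET1, and 11 of the 12 fell (adjusted p under 0.05, edgeR). The share of all tested genes that fell was 27.6%. The cells are therefore called by their label only. The part of erythroid RNA in the values below was not tested, and in bulk RNA fewer cells of a type and less RNA per cell cannot be told apart.

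Ribosomal proteins are made in near-equal numbers, because each mature ribosome carries 1 copy of most of them. Their mRNAs are among the most abundant of a growing cell, and most start with a terminal oligopyrimidine (TOP) tract, a C followed by a run of C and U that lets the kinase mTOR, through LARP1 and the 4E-BPs, tie their translation to growth conditions. RNA counts show transcript levels and not this translational step.

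The TOP tract was looked for in RefSeq transcript starts on GRCh38.p14, as a C at the start followed by at least 4 more C or T on the transcribed strand. Starts were found for 69 members, and 48 of them (69.6%) had the tract at 1 start or more, against 5.14% of all 27305 genes with a start in the table. Only 2 of 7 paralogs with a start had it. The sequences below are those of some members at the ends of the response and of some paralogs and parents. RPL3, higher in log2 fold change than RPLP0, and RPL6 at the low end had no tract at any listed start and are not printed. RPL7L1 is printed without its parent RPL7. Each has 15 bases before the start in lower case and 15 bases of the transcript, in which capitals mark the unbroken pyrimidine run of a TOP tract. A sequence with no capitals has no such tract at that start.
RPL12 (chr9:127451392-127451421, minus strand): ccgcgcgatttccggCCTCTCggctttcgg
RPL13A (chr19:49487593-49487622, plus strand): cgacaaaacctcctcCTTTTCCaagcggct
RPLP0 (chr12:120201097-120201126, minus strand): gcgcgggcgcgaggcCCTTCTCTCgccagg
RPS21 (chr20:62387088-62387117, plus strand): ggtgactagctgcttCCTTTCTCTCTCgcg
RPS26 (chr12:56041903-56041932, plus strand): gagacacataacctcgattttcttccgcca
RPL22 (chr1:6199581-6199610, minus strand): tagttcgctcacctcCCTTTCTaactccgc
RPL22L1 (chr3:170870181-170870210, minus strand): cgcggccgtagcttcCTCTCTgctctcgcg
RPL26 (chr17:8383179-8383208, minus strand): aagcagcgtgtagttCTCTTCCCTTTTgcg
RPL26L1 (chr5:172958865-172958894, plus strand): ggcggggcggcggccacaaacccgcaggca
RPS27 (chr1:153990747-153990776, plus strand): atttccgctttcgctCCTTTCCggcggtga
RPS27L (chr15:63157463-63157492, minus strand): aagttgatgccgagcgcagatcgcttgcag
RPL7L1 (chr6:42879601-42879630, plus strand): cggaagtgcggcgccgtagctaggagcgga
The tract was found in members of both directions, such as RPL12 and RPS21. It was absent at both listed RPL26L1 starts, of which the downstream one is printed.

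Most cytosolic ribosomal protein mRNAs moved little with dBET1. Levels are given as CPM, the counts of a gene scaled to a common library size with TMM factors, and changes as log2 fold change of dBET1 over DMSO with its standard error (SE). A gene is said to have changed where edgeR's quasi-likelihood test gave an adjusted p under 0.05 over all 17971 genes tested. Of the 83 tested members, 55 lay within 0.25 of 0 on the log2 scale, and the median log2 fold change was -0.067 (quartiles -0.23 and 0.050), beside 0.048 over all genes tested. The members were lower in 16 cases (19.3%), where 27.6% of all tested genes were lower, and higher in 9 cases (10.8%), where 28% of all tested genes were higher. The other 58 members (69.9%) did not pass the test. Both shares of changed members were below those of the whole table.

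**Figure D1:**
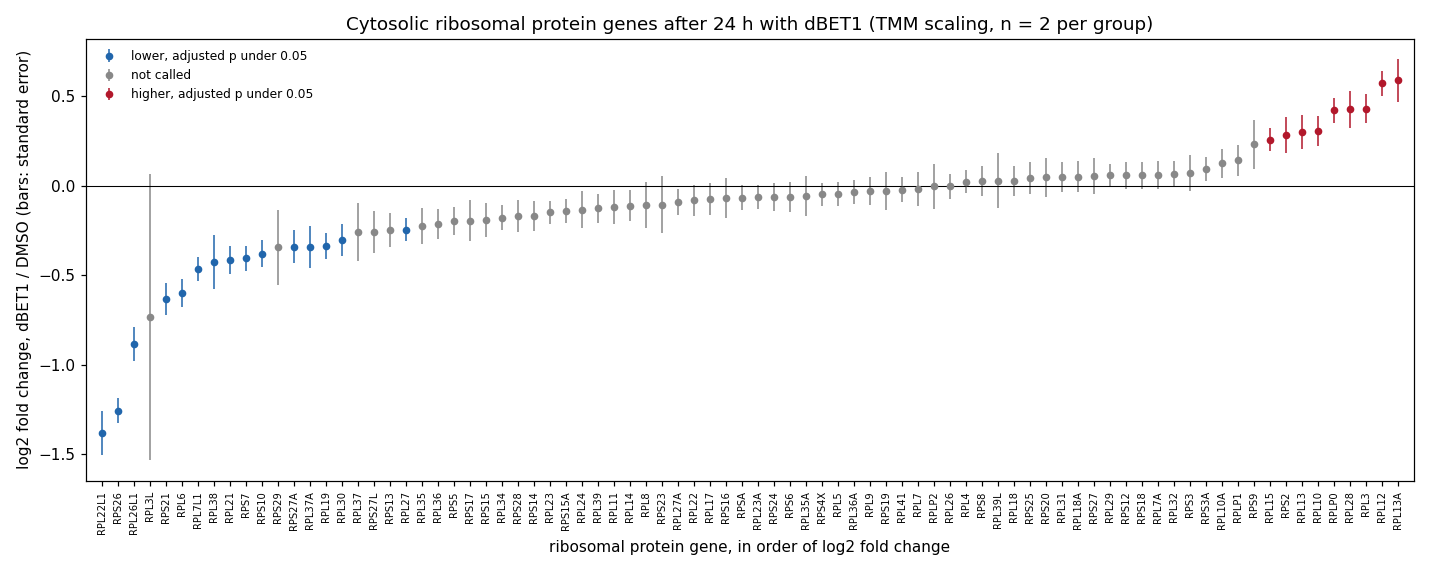
Log2 fold change of dBET1 over DMSO for 82 of the 83 tested ribosomal protein genes in order, with bars for the standard error and colours for the call at an adjusted p under 0.05 (2 libraries per group). Most points lie close to 0, with RPL22L1 (-1.38), RPS26 (-1.26) and RPL26L1 (-0.88) far below and RPL12 (0.57) and RPL13A (0.59) highest.

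Past a log2 change of 1 in size, 2 members were lower and 0 were higher by edgeR's test, with shares of 8.54% and 16.9% in all tested genes. DESeq2 also gave 2 and 0. With no limit on the fold, edgeR gave 9 higher members at an adjusted p under 0.05. The level of the dBET1 libraries lay below both DMSO libraries for 32 members (38.6%, against 37.4% of all tested genes) and above both for 13 members (15.7%, against 41.9%), and 38 overlapped. Among genes above a floor on abundance the table looked different. Of 2148 other genes with a mean of at least 100 CPM, 63.1% were lower and 13.8% higher. Their median log2 fold change was -0.42, and 78 members reached this floor. Tested members that are no paralogs had means from 105 to 3335 CPM in DMSO, so the floor does not match their levels.

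RPL22L1 was the member with the lowest log2 fold change. Its protein is a paralog of RPL22, an RNA-binding protein of the large subunit, and its gene spans chr3:170864875-170870208 on hg38. It was at 32.4 and 34.6 CPM in DMSO and at 12.1 and 13.6 CPM with dBET1, so the groups did not overlap. The level fell by 1.38 on the log2 scale (SE 0.12, adjusted p = 7.8e-05, edgeR quasi-likelihood test), to 0.384 of the DMSO level.

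RPS26 followed, with the same separation at a level of core ribosomal proteins. It sits at the mRNA exit of the small subunit, where it contacts bases upstream of the start codon, and its gene lies at chr12:56041351-56044697. It was at 522 and 513 CPM in DMSO and at 211 and 222 CPM with dBET1. This was a change of -1.26 on the log2 scale (SE 0.07, adjusted p = 1.3e-05, edgeR), to 0.419 of the DMSO level. RPS26 made up 0.649% and 0.551% of the members' counts in DMSO and 0.240% and 0.256% with dBET1. RPL22L1 and RPS26 were lower by more than 1 on the log2 scale in all 15 processing settings tried.

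Another 3 members stood out at the low end. RPL26L1, a paralog of RPL26, was at 52.0 and 49.0 CPM in DMSO and at 26.8 and 27.98 CPM with dBET1, a log2 fold change of -0.88 (SE 0.10, adjusted p = 0.00019, edgeR). RPS21, a protein of the small subunit, was at 625 and 716 CPM in DMSO and at 454 and 413 CPM with dBET1, a log2 fold change of -0.63 (SE 0.09, adjusted p = 0.00073, edgeR). RPL6, a protein of the large subunit, was at 1372 and 1552 CPM in DMSO and at 975 and 953 CPM with dBET1, a log2 fold change of -0.60 (SE 0.08, adjusted p = 0.00049, edgeR). In none of the 3 did the libraries of the groups overlap. RPL3L, a paralog of RPL3 that is known from striated muscle, had 6 and 17 counts in DMSO and 3 and 11 with dBET1, and its log2 fold change of -0.73 (SE 0.80) did not pass the test.

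The remaining lower members changed less. Among them, RPL7L1, RPL38, RPL21, RPS7, RPS10, RPS27A, RPL37A, RPL19, RPL30 and RPL27 had log2 fold changes from -0.46 (RPL7L1) to -0.24 (RPL27). RPS27A encodes a ribosomal protein fused to ubiquitin, so that its transcript also supplies free ubiquitin. RPL38 had the highest adjusted p of the 16 lower members. It was at 351 and 489 CPM in DMSO and at 338 and 288 CPM with dBET1, and edgeR's test gave an adjusted p of 0.044. Its first DMSO library lay close to the dBET1 pair and the second well above it.

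At the upper end the changes were smaller than at the lower end. RPL13A, a large-subunit protein that can leave the ribosome to silence inflammatory mRNAs, was at 2004 and 2626 CPM in DMSO and at 3592 and 3376 CPM with dBET1, a 1.505-fold level (log2 0.59, SE 0.12, adjusted p = 0.0041, edgeR). RPL12, at the base of the stalk, was at 833 and 891 CPM in DMSO and at 1288 and 1276 CPM with dBET1, a 1.49-fold level (log2 0.57, SE 0.07, adjusted p = 0.00032, edgeR). RPL3, whose protein reaches towards the peptidyl transferase centre, was at 1952 and 2235 CPM in DMSO and at 2859 and 2789 CPM with dBET1, a 1.35-fold level. The dBET1 libraries of all 3 lay above both DMSO libraries, although the DMSO libraries of RPL13A were themselves apart. RPL28 (log2 0.43), RPLP0 (0.42), RPL10 (0.31), RPL13 (0.30), RPS2 (0.28) and RPL15 (0.26) were the other higher members, and RPS2 was the only one of the 9 from the small subunit.

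**Figure D2:**
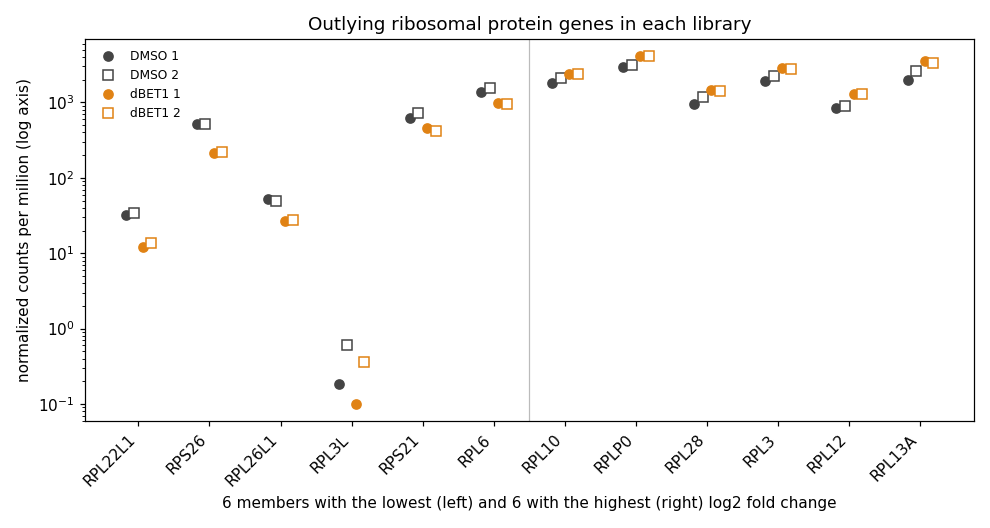
Normalized CPM on a log axis in each of the 4 libraries for the 6 members with the lowest and the 6 with the highest log2 fold change. The dBET1 libraries lie below both DMSO libraries for RPL22L1, RPS26, RPL26L1, RPS21 and RPL6 and above both for the 6 on the right, while the few counts of RPL3L overlap.

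The large subunit had a higher share of the members' own counts with dBET1, and single abundant genes weighed on it. Large-subunit genes took 61.3% and 60.8% of all member counts in DMSO and 63.2% and 63.2% with dBET1. This was a rise of 2.17 percentage points beside an SD of 0.364 in DMSO (n = 2). RPL13A alone went from 2.49% and 2.82% to 4.07% and 3.89%, and RPLP0 from 3.63% and 3.40% to 4.64% and 4.68%. The rise therefore does not describe large-subunit genes in general. Of the 51 large-subunit members tested, 10 were lower and 8 higher (median log2 fold change -0.055). Among the 32 small-subunit members 6 were lower and 1 higher (median -0.087), where 27.6% of all tested genes were lower and 28% higher. The 5 members with most counts summed over all 4 libraries were RPS2, RPLP0, RPL13A, RPL8 and RPL3. They took 15.2% and 16.0% of the members' counts in DMSO and 19.7% and 19.3% with dBET1. The choice of the 5 used the dBET1 counts as well, which favours members that rise. In DMSO, RPL13 held 2.46% and 2.58% of the members' counts, against 2.43% and 2.40% for RPL3. An exact two-sided permutation test of 2 against 2 libraries gave p = 0.333, the smallest it can give. This held for the share of the large subunit and for that of the 5 members. Over the 83 members, log2 fold change and log2 CPM in DMSO had Spearman's rho 0.42 and Pearson's r 0.48, a description of genes that share the same 4 libraries.

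Per kilobase of the canonical transcript, the most abundant members in DMSO were RPS2, RPLP0, RPL19, RPS10 and RPL8, at 3530, 2754, 2702, 2650 and 2608 CPM per kilobase. Of these, RPL19 and RPS10 were lower with dBET1, at log2 fold changes of -0.34 and -0.38. RPS2 and RPLP0 were higher, and RPL8 was at 2365 and 3216 CPM in DMSO and at 2645 and 2534 CPM with dBET1, inside the range of the DMSO pair. The most abundant members thus included both directions.

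The paralogs and their parent genes differed in both level and change. The 6 tested paralogs had 3 lower and 0 higher members and a median log2 fold change of -0.60. That median lies between RPL7L1 (-0.46) and RPL3L (-0.73, SE 0.80), and RPL3L had at most 17 counts in any library. The other 77 tested members had 13 lower, 9 higher and a median of -0.061. Over all tested genes, 27.6% were lower and 28% higher. RPL22L1 amounted to 6.15% and 5.63% of the RPL22 counts in DMSO and to 2.199% and 2.57% with dBET1. RPL26L1 amounted to 8.13% and 7.64% of RPL26 in DMSO and to 4.34% and 4.23% with dBET1. RPL7L1 amounted to 38.7% and 30.9% of RPL7 in DMSO and to 24.99% and 25.6% with dBET1. In these 3 pairs the paralog passed the test as lower and its share was lower in both dBET1 libraries than in both DMSO libraries, and the parents RPL22, RPL26 and RPL7 had log2 fold changes of -0.08, -0.002 and -0.02 that did not pass the test.

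RPS27L and RPL39L did not pass the test. RPS27L, a target of p53, was at 23.2 and 24.6 CPM in DMSO and at 19.2 and 20.7 CPM with dBET1, and its log2 fold change of -0.26 (SE 0.12) missed the threshold with an adjusted p of 0.099 in edgeR's test. It amounted to 3.33% and 2.97% of RPS27 in DMSO and to 2.28% and 2.80% with dBET1, so its share too was lower in both dBET1 libraries. RPL39L, a paralog of the exit-tunnel protein RPL39 with high levels in the testis, was at 24.0 and 32.9 CPM in DMSO and at 28.6 and 29.3 CPM with dBET1, inside the range of the DMSO pair. Its share of RPL39 was 5.71% and 6.94% in DMSO and 6.80% and 7.37% with dBET1, so the groups overlapped.

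**Figure D3:**
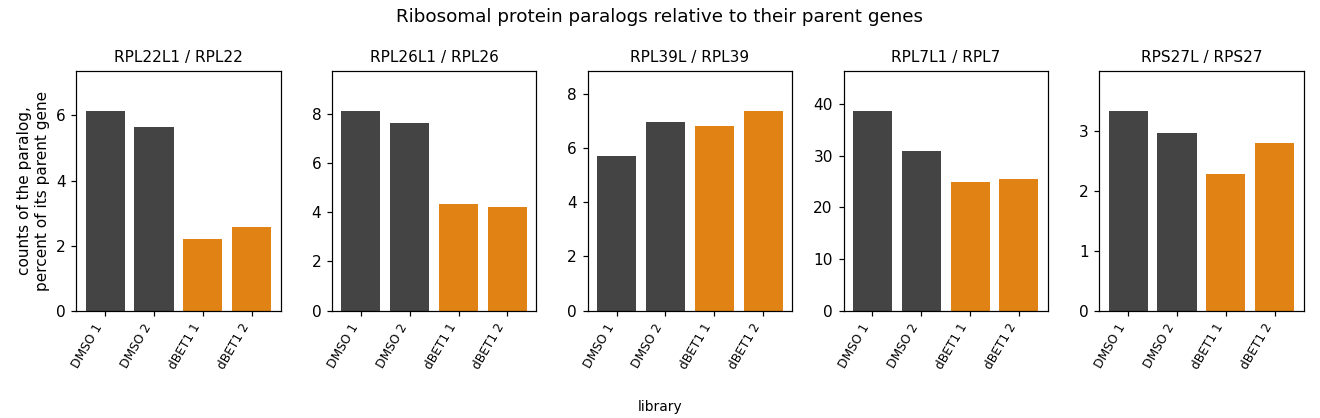
Counts of 5 paralogs as percent of the counts of their parent genes in each library, with DMSO in grey, dBET1 in orange and each axis starting at 0. RPL22L1, RPL26L1, RPL7L1 and RPS27L have lower shares in both dBET1 libraries than in both DMSO libraries, and RPL39L overlaps between the groups.

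Members that share a place on the ribosome were set side by side, and those of the stalk were not alike in their change. The stalk of the large subunit, which recruits translation factors, is built of RPLP0, RPLP1 and RPLP2 on a base that includes RPL12. Of these 4, RPLP0 and RPL12 were higher and 0 were lower, where 28% of all tested genes were higher. Under total counts 3 of the 4 were higher and 0 lower, with a median log2 fold change of 0.49. On that scale 37.3% of all tested genes were higher. RPLP0 was at 2919 and 3166 CPM in DMSO and at 4095 and 4067 CPM with dBET1 (log2 fold change 0.42, SE 0.07, adjusted p = 0.0015, edgeR). RPLP1 was at 1251 and 1465 CPM against 1503 and 1498 CPM (log2 0.14, adjusted p = 0.19, edgeR), and RPLP2 was at 617 and 829 CPM against 743 and 700 CPM. RPLP2 lay inside the range of the DMSO pair, although the 2 proteins form dimers on RPLP0.

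RPL5 and RPL11 join the 5S ribosomal RNA and, when free, bind the p53 regulator MDM2. RPL5 was at 967 and 1002 CPM in DMSO and at 962 and 947 CPM with dBET1, and RPL11 was at 923 and 1118 CPM and at 957 and 923 CPM. Neither passed the test (adjusted p = 0.59 and 0.33, edgeR). Of 9 members along or around the exit tunnel, through which the new peptide leaves, RPL19 was the only one lower and 0 were higher. Their median log2 fold change was -0.075, and 27.6% of all tested genes were lower and 28% higher. Under total counts 0 of the 9 were lower and 3 were higher, with a median of 0.14, and RPL19 had a log2 fold change of -0.12 that did not pass the test. RPL19 was at 1886 and 2097 CPM in DMSO and at 1581 and 1575 CPM with dBET1. The other 8 were RPL4, RPL17, RPL22, RPL23A, RPL26, RPL31, RPL35 and RPL39, with log2 fold changes from -0.22 (RPL35) to 0.05 (RPL31).

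A set of 20 members are genes in which mutations are linked to Diamond-Blackfan anaemia, a failure of red cell production. RPS7, RPS10, RPS26 and RPL27 were lower and RPL15 was higher, where 27.6% of all tested genes were lower and 28% higher. The median log2 fold change of the list was -0.090, beside 0.048 over all genes tested. Under total counts the direction of the list turned, with 2 lower, 5 higher and a median of 0.12, beside 0.26 over all genes. On that scale 19.9% of all tested genes were lower and 37.3% higher. RPS7 was at 959 and 962 CPM in DMSO and at 702 and 750 CPM with dBET1. RPL15 was at 1031 and 1050 CPM in DMSO and at 1244 and 1245 CPM with dBET1, and RPS19, the gene most often mutated in the disease, was at 1099 and 1381 CPM in DMSO and at 1221 and 1212 CPM with dBET1. The groups were apart for RPS7 and RPL15 and overlapped for RPS19.

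Transcript features that the choice of members did not use were set beside the changes. Members with a TOP tract at a RefSeq start numbered 47 among those tested, of which 7 were lower and 6 higher (median log2 fold change -0.055). The 19 with starts but no tract had 7 lower and 2 higher members (median -0.19). The tract was called only at the exact listed base, so the group without it can hold members with a run beside that base. RPL19, counted there, has a pyrimidine run across its downstream start. In 28 members that carry an annotated snoRNA within the gene, 3 were lower and 6 higher (median 0.024). In the 55 without one, 13 were lower and 3 higher (median -0.11). Beside these tract and snoRNA counts, 27.6% of all tested genes were lower and 28% higher. Over the 83 members, log2 fold change had a Spearman's rho of 0.21 with GC content and of 0.09 with transcript length. For the log2 ratio of DMSO 2 over DMSO 1, rho was 0.285 with GC content and -0.063 with length. Both the log2 fold change and this ratio use the DMSO libraries, so their coefficients are not independent. These are descriptions of genes from 1 set of libraries, with no test.

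How much of the RNA the members took depended on the scale. As a percent of all counts, they held 7.56% and 8.55% in DMSO and 9.45% and 9.35% with dBET1, 1.35 percentage points more beside an SD of 0.699 in DMSO (n = 2, exact two-sided permutation p = 0.333, the smallest possible). Summed on the TMM scale, they came to 80352 and 93172 CPM in DMSO and to 88180 and 86856 CPM with dBET1, inside the range of the DMSO pair. TMM factors were 0.941 and 0.918 in DMSO and 1.07 and 1.08 with dBET1. With total counts as the only scaling, the median log2 fold change of all genes tested moved from 0.048 to 0.26 and that of the members from -0.067 to 0.14, so the members stayed below the middle of the table on both scales. On total counts 8 members were lower and 28 higher, where 19.9% of all tested genes were lower and 37.3% higher.

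The DMSO libraries themselves differed over the members. Of the 83, 78 were higher in DMSO 2 than in DMSO 1 on the TMM scale, with a median log2 ratio of 0.20, while 49.3% of all tested genes were higher in DMSO 2 and their median log2 ratio was 0.0. In the dBET1 pair 36 of 83 were higher in the second library, with a median of -0.0079. Besides RPL3L, the DMSO libraries were furthest apart for RPS29, at 173 and 282 CPM against 199 and 159 CPM with dBET1, and for RPS23, at 1698 and 2505 CPM against 2023 and 1886 CPM. Neither gene passed the test. Both are small-subunit proteins, and RPS23 lies at the decoding centre. The part of this difference in the results was not tested. The median log2 fold change of the members moved with the library left out. It was -0.21 without DMSO 1, beside 0.092 over all genes of that fit, and 0.0018 without DMSO 2, beside 0.080. Without dBET1 1 it was -0.10, beside 0.042 over all genes, and without dBET1 2 it was -0.078, beside 0.040.

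**Figure D4:**
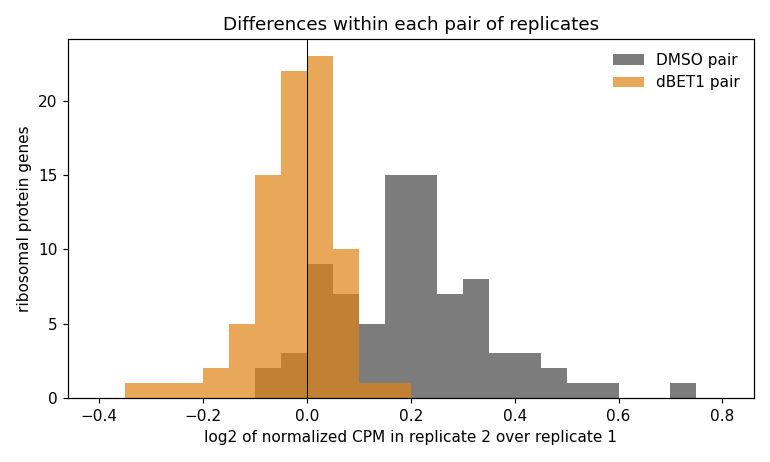
Log2 ratio of normalized CPM in replicate 2 over replicate 1 for 82 tested members, RPL3L left out for its few counts, in the DMSO pair (grey) and the dBET1 pair (orange). Most DMSO ratios lie above 0 (median 0.20 over all 83) and the dBET1 ratios centre near 0 (median -0.0079).

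Some members kept their call whatever the processing. RPL22L1, RPS26, RPL26L1, RPS21, RPL6, RPL7L1, RPL21 and RPS7 were lower in all 15 settings, and RPLP0, RPL3, RPL12 and RPL13A were higher in all 15. Another 3, RPS23, RPLP2 and RPS20, passed the test as lower in 1 or more settings and as higher in others. Under total-count scaling 8 of the 16 lower members and 9 of the 9 higher members kept their call.

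**Figure D5:**
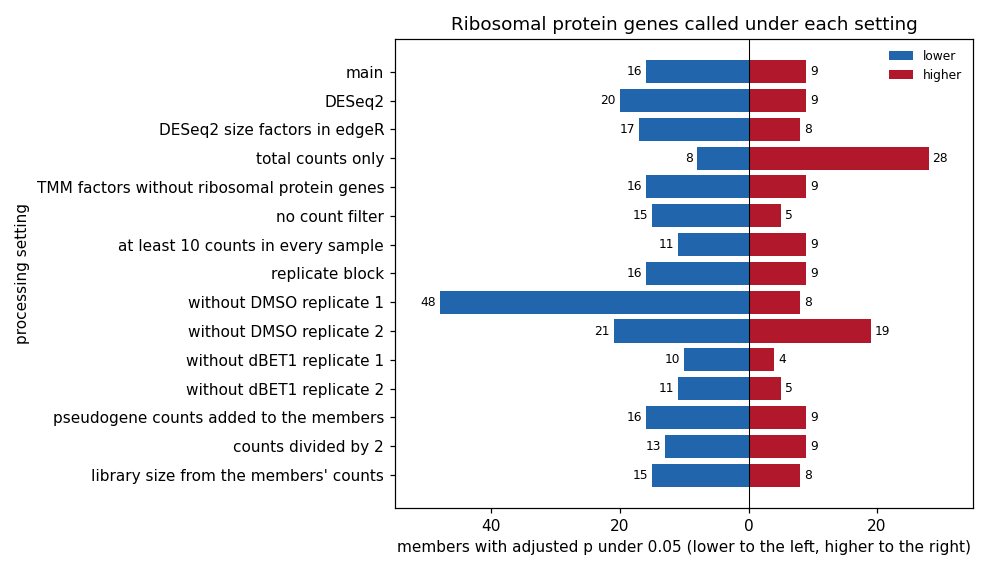
Number of ribosomal protein genes lower (left, blue) and higher (right, red) at an adjusted p under 0.05 under each processing setting. The main setting gave 16 lower and 9 higher members, and total counts gave 8 and 28. Leaving out a library moved the counts in both directions. The share of all genes called in each setting is not drawn.

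Processed pseudogenes of these genes are many and near-identical, and reads can be shared between copies. Of 1598 annotated pseudogene loci of the members, 661 had counts and 156 were tested. Together they held 0.263% and 0.305% of all counts in DMSO and 0.370% and 0.356% with dBET1, and the median member had pseudogene counts of 0.33% of its own. In 9 members the share was above 10%, with RPS28 (41.4%), RPL21 (29.9%) and RPL39 (19.9%) at the top. The 9 include RPS2 (19.3%), which was higher with dBET1, and RPL21 and RPS7 (12.2%), which were lower. Values of all 9 are uncertain. Adding the pseudogene counts to their parents gave 16 lower and 9 higher members. RPS9 had the lowest level of the 77 members that are no paralogs, at 89.6 and 120 CPM in DMSO and at 131 and 115 CPM with dBET1. Its region has alternate haplotypes in hg38, and 2.49% to 2.63% of the counts were in identifiers that could not be matched to a gene.

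Among ribosomal components whose symbols fall outside the rule, FAU, RACK1 and RPL36AL were lower by edgeR's test. FAU, which encodes a small-subunit protein fused to a ubiquitin-like domain, was at 518 and 627 CPM in DMSO and at 374 and 358 CPM with dBET1 (log2 fold change -0.64). RACK1, a scaffold on the small subunit, had a log2 fold change of -0.24. RPL36AL, a near copy of RPL36A, had one of -0.52, while RPL36A was at 598 and 596 CPM in DMSO and at 574 and 591 CPM with dBET1.

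Other mRNAs known for TOP tracts included both directions. Of 16, which include RACK1, 6 were higher and 4 lower, with a median log2 fold change of 0.15. The shares over all tested genes were 28% higher and 27.6% lower. Under total counts 9 of the 16 were higher and 2 lower, with a median of 0.36, beside shares of 37.3% and 19.9% over all tested genes. EEF2, which moves the ribosome along the mRNA, was at 3793 and 3923 CPM in DMSO and at 7975 and 7659 CPM with dBET1 (log2 1.02), above each of the members' log2 fold changes. EEF1A1, which delivers aminoacyl-tRNA, had a log2 fold change of 0.60 and TPT1 of 0.48. On the other side NPM1, a nucleolar chaperone, had a log2 fold change of -0.77 and HNRNPA1 of -0.59.

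Among 12 regulators of TOP mRNA translation, 7 were lower and 4 higher, where 27.6% of all tested genes were lower and 28% higher. Under total counts 5 were lower and 4 higher, where 19.9% of all tested genes were lower and 37.3% higher. EIF4EBP1 (log2 fold change -1.19), the mTOR complex genes MLST8 (-1.10) and RPTOR (-0.87), the cap-binding factor EIF4E (-0.95), RHEB (-0.68), LARP1 (-0.34) and RPS6KB2 (-0.25) were lower. The mTOR inhibitors TSC1 (1.15) and TSC2 (0.73), EIF4EBP2 (1.08) and MTOR itself (0.27) were higher. Kinase activity was not measured.

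Dedicated chaperones of single ribosomal proteins were lower in 5 of 6 cases and higher in 0, with a median log2 fold change of -0.87. The share of lower genes was 27.6% over all tested genes. It was 63.1% over genes other than members with a mean of at least 100 CPM. BCCIP, which carries RPL23, was at 181 and 170 CPM in DMSO and at 58.9 and 53.2 CPM with dBET1 (log2 -1.65), while RPL23 had a log2 fold change of -0.15 that did not pass the test. GRWD1, the chaperone of RPL3, was lower (log2 -0.94) beside RPL3 at 0.43, and PDCD2, the chaperone of RPS2, was lower (log2 -0.80) beside RPS2 at 0.28. TSR2, the chaperone of RPS26, had a log2 fold change of -0.25 that missed the threshold with an adjusted p of 0.083 in edgeR's test. The genes of the mitochondrial ribosome, which belong to a separate machine, were lower in 71 of 78 cases and higher in 0, with a median log2 fold change of -0.97. Under total counts 64 of the 78 were lower and 1 was higher, where 19.9% of all tested genes were lower and 37.3% higher.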

How the data were processed

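Total RNA from 2 libraries of each group was sequenced. The labels name TRIzol and a TruSeq kit and the paper's methods another extraction kit. Per the paper's methods, the authors aligned reads to hg38 with HISAT2 2.2.0 (version also in the submitters' processing notes) and used StringTie. The deposited values are whole-number counts per gene, not normalized. The step from StringTie to counts and its strand setting are not given in the sources used here, so overlapping genes and near-identical copies can share counts. The table had 0 rows naming no gene and 0 unmapped columns. GENCODE 44 gave symbols and hg38 coordinates for 56105 of 64252 identifiers.

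Counts were analysed in R 4.3.3 with edgeR 4.0.16 (filterByExpr, TMM, quasi-likelihood test on group alone, Benjamini-Hochberg adjustment over 17971 genes), with DESeq2 1.42.0 as an alternative. The SE is the log2 fold change divided by the square root of F. The biological coefficient of variation was 0.123. Replicates differed beyond counting error: chi-square per degree of freedom was 23.6 (DMSO) and 8.14 (dBET1) over all genes, and 135 and 30.7 over the members. The scripts were tested on simulated data. Total counts only, other filters, leaving out each library, a replicate block, added pseudogene counts and counts divided by 2 were tried.

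The members and gene lists were chosen with earlier results of these data known. Genes named with values are the 6 lowest and 6 highest members and members over 3 scaled median absolute deviations from the members' median. Also named are paralogs with parents, stalk, 5S and exit-tunnel members, the 5 most abundant per kilobase and the 3 with most unlike DMSO replicates. Genes of the lists are named too. Some genes are not reported here.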

Additional observations from a re-analysis of the deposited data

How the results depend on the processing

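Over 14 alternatives, 502 values of 36 named members were recomputed: 429 kept direction and side of the threshold, 13 lost the call, 16 gained one and 44 changed sign, 0 of them for a member called in the main analysis. Total counts gave 8 lower and 28 higher members and a median log2 fold change of 0.14, and no count filter gave 5 higher members. Leaving out 1 library gave 10 to 48 lower members, 4 to 19 higher members and medians from -0.21 (without DMSO 1) to 0.0018 (without DMSO 2). The members' share of counts then rose by 0.851 to 1.84 percentage points. In such fits the lone library is assumed to vary like the other group. The count of members past a log2 change of 1 stayed at 2 lower and 0 higher in each alternative. The cause of these shifts was not tested. DESeq2 gave 20 lower and 9 higher members, and a library size from the members' counts, chosen after seeing the data, gave 15 and 8. The share of all genes called is given only for the main setting and total counts. Counts under other settings therefore describe the settings and not the members.

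Members near 0 changed sign, and 3 of the new values passed the test, those of RPL26 under total counts and of RPS23 and RPLP2 without DMSO 2. Under total counts the log2 fold change was 0.13 for RPL22, 0.094 for RPL11, 0.17 for RPL5, 0.11 for RPS23, 0.19 for RPL7, 0.10 for RPL8, 0.21 for RPLP2, 0.21 for RPL26, 0.15 for RPL23A, 0.14 for RPL17, 0.16 for RPS4X and 0.085 for RPL39. Leaving out 1 library gave ranges of -0.21 to 0.0019 for RPL22, -0.093 to 0.15 for RPS27, -0.069 to 0.12 for RPL31, -0.21 to 0.24 for RPL39L, -0.385 to 0.17 for RPS23, -0.17 to 0.093 for RPL7, -0.34 to 0.10 for RPL8, -0.23 to 0.20 for RPLP2, -0.68 to 0.023 for RPS29 and -0.22 to 0.019 for RPL17, each lowest without DMSO 1 and highest without DMSO 2. It gave -0.027 to 0.025 for RPL4, -1.93 to 0.29 for RPL3L and -0.067 to 0.042 for RPL26. With at least 10 counts in every sample the value was 0.026 for RPL5, 0.052 for RPL7, 0.066 for RPLP2, 0.069 for RPL26, 0.0084 for RPL23A and 0.023 for RPS4X. With no filter it was -0.0043 for RPL31, -0.024 for RPL39L and -0.032 for RPL4, with DESeq2 -0.0044 for RPL39L and -0.013 for RPL4, and with counts divided by 2 it was 0.014 for RPL7, 0.028 for RPLP2 and 0.030 for RPL26.

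The replicate block gave 16 lower and 9 higher members with a median of -0.062, and RPLP2 at 0.012. Nothing in the labels pairs the replicates, and deviations of same-numbered libraries had a correlation of -0.0075. With 2 libraries per group, SDs rest on 2 values and a test of outlying samples was not possible. Of the members tested, only RPL3L had fewer than 100 counts in a library.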
